A study of Homo sapiens with 21 samples.

Results

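The amino acid transporters of the solute carrier (SLC) families SLC1, SLC3, SLC6, SLC7, SLC36, SLC38 and SLC43 were described in THP1, a human cell line from acute myeloid leukemia. Members were all genes of the deposited normalized table whose symbol was SLC followed by 1A, 3A, 6A, 7A, 36A, 38A or 43A and a number. The rule found 59 members among 20423 genes. Of these, 27 averaged 10 or more normalized counts across the 19 libraries and were counted as expressed, and 32 averaged less. The choice rests on names alone, and names hold some members that carry other cargo, such as taurine, creatine or nucleobases. The means closest to the limit were 9.69 for SLC6A11, just outside, and 16.7 for SLC6A16, just inside.

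Amino acids cross cell membranes mainly through carriers. Exchangers such as the complex of SLC3A2 with SLC7A5 trade an amino acid inside the cell for one outside, while sodium-coupled carriers such as SLC38A1 and SLC38A2 take up neutral amino acids against a gradient. SLC1A5 needs sodium but also works as an exchanger. SLC36A1 and SLC38A9 sit on the lysosome, where amino acid supply is read by the growth kinase complex mTORC1. Monocytes and macrophages use these carriers to bring in arginine, glutamine and the cystine needed for glutathione.

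Messenger RNA was sequenced from THP1 cells in which IRF2BP2, a transcriptional corepressor, was knocked down, or in which ATF7 or JDP2, transcription factors of the basic leucine zipper class, were edited. The knockdown used short hairpin RNAs (shRNAs) in the pLKO.1 vector: IRF2BP2 shRNA 1 and IRF2BP2 shRNA 2 had 3 libraries each, and the shRNA control had 2 (replicates 1 and 3). The knockouts came from Lenti-CRISPRv2 constructs with clones isolated by limiting dilution, with 2 libraries for each of clones 1 and 2 of ATF7 and of JDP2, and 2 for the knockout control. A clone descends from a single cell, so its own features cannot be told apart from those of the edit. Wild type replicate 2 came from cells with neither construct, and all cells grew in the same serum-containing medium. Replicate 2 of the shRNA control and replicate 1 of the wild type carry a low-quality mark in the labels, and these 2 were not analysed here.

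Depth ranged from 28.7 to 60.2 M (mega) reads recovered in genes per library. All 12 monocytic marker genes had a mean of at least 10 over all libraries, although MPO (15.1 to 119) and CD14 (2.16 to 157) were low. The lymphoid and red cell markers CD3D, CD3E, CD3G, CD8A, MS4A1 and HBA1 had a median of 0. Other markers of these cells were detected: NKG7, PAX5, CD79A (median 274) and the red cell factor KLF1 (median 184, range 65.4 to 753). IRF2BP2 itself had 9456, 11110 and 9802 normalized counts with IRF2BP2 shRNA 1 and 12587, 16649 and 25651 with IRF2BP2 shRNA 2. The shRNA control had 16973 and 18382. IRF2BP2 shRNA 2 replicate 3 held the 25651 and so goes against its label, and replicate 2, at 16649, lay just below the shRNA control. Lowering of the IRF2BP2 message was thus clear in every library of IRF2BP2 shRNA 1 but not of IRF2BP2 shRNA 2. The ATF7 and JDP2 messages overlapped between their knockout clones and the knockout control, which does not test the edit, since editing need not lower the message. A departure of more than 2-fold from the median library was seen for over 20% of genes in 3 libraries: IRF2BP2 shRNA 1 replicate 3 (48.5%), JDP2 knockout clone 1 replicate 2 (38.2%) and IRF2BP2 shRNA 2 replicate 3 (25.6%). The labels do not say whether replicates were separate cultures, so p-values cover the spread among libraries only, and that spread may be technical.

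The windows before the annotated start of 3 members are shown, because these genes carry the knockdown call (SLC7A7), the difference between knockdown and knockout (SLC1A3) and a change that the authors' deposited table calls for JDP2 (SLC3A2), and because ATF7 and JDP2 belong to a class that binds short TGA-containing sites. The sequences are from RefSeq on GRCh38.p14. They run 5′ to 3′ on the gene's strand, at chr14:22819812-22820041 on the minus strand, chr5:36596338-36596587 on the plus strand and chr11:62881449-62881698 on the plus strand. Exon bases of GENCODE release 29 were left out at the ends, which took 20 bases next to the start of SLC7A7. Of the starts RefSeq gives for each gene, a start whose window holds a motif match is shown, with the matched letters in capitals.
SLC7A7: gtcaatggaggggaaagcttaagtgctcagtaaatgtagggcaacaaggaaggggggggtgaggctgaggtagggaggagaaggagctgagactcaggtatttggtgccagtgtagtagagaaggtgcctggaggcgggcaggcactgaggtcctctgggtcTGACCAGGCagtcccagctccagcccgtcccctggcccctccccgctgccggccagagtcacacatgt
SLC1A3: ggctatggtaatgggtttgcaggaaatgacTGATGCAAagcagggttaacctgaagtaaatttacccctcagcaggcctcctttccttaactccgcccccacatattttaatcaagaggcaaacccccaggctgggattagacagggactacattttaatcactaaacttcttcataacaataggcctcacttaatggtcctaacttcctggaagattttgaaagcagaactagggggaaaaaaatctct
SLC3A2: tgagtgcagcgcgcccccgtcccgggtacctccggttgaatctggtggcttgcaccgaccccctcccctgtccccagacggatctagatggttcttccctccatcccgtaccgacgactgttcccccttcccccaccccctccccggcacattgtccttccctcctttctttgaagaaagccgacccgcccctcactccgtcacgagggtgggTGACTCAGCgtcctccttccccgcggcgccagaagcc

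The capitals mark TGACNNNGC, the core of the antioxidant response element, in SLC7A7, and TGATGNAA, the core of the amino acid response element, in SLC1A3. In SLC3A2 the AP-1 site TGANTCA lies inside a TGACNNNGC match. SLC1A3 had further matches at other starts. Its window chr5:36606704-36607003 held TGANTCA at -128 and -26 from the start, and window chr5:36606356-36606655 held TGACNNNGC. The window shown for SLC1A3 lies before the GENCODE gene, which begins at 36606355. Each motif was searched on both strands in windows of 250 bases before and 50 after the start, which RefSeq gave for 44 of the 59 members and for 24 of the expressed ones. TGANTCA was found for 7 of these 24 members (29.17%), against 8.07% of all 15309 genes with a window. TGATGNAA was found for 6 (25.0%), against 3.64%. TGACNNNGC was found for 7 (29.17%), against 18.04%. The full cyclic AMP response element TGACGTCA was found for 0, against 3.06%. These counts depend on how many starts a gene has: by window, TGANTCA was in 17.78% of the 45 windows of expressed members and 6.16% of all windows, TGATGNAA in 13.33% and 2.71%, and TGACNNNGC in 15.56% and 13.83%. The same TGANTCA site of SLC7A8 lies in overlapping windows of different starts and counts in each. The genes set beside the expressed members were all those with a window, whatever their level. A match is a description of the letters.

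Per kilobase of exon, the 5 control libraries (shRNA control, wild type and knockout control) were led by SLC1A5, the sodium-coupled glutamine carrier ASCT2, with a median of 8921 normalized counts per kilobase. SLC7A5, the leucine exchanger LAT1, had 6489, and its partner SLC3A2, the heavy chain also known as CD98, had 3261. SLC38A10 had 4015 and SLC43A3, described as a nucleobase carrier, 3142. Neighbours among these 5 overlapped in their control values. The lowest control of SLC43A3, 2506, lay above the highest of SLC1A4, 2420.5.

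Below them, SLC1A4 (a carrier of alanine, serine and cysteine), SLC43A1 (the facilitated leucine carrier LAT3), SLC7A1 (the arginine and lysine carrier CAT1), SLC38A2 (the sodium-coupled carrier SNAT2) and SLC6A6 (the taurine carrier) ran from 2114 down to 687 per kilobase, each overlapping the next. SLC38A1, at 290.4, stood apart from both neighbours. The other expressed members had medians of 110.5 or less, among them SLC36A1 at 72.2, SLC1A3 at 71.9, SLC7A11 at 31.0 and SLC7A7 at 9.38. Length took no account of which transcripts the cells used. SLC7A6 shares 53.0% of its exon length with SLC7A6OS on the opposite strand, SLC1A5 23.4% with an antisense gene and SLC38A6 12.2% with TRMT5, and no source used here gives the strand setting of the counting, which leaves these levels uncertain. The levels of SLC7A5 and SLC6A8 are uncertain too, since both have near-identical copies elsewhere in the genome.

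**Figure D1:**
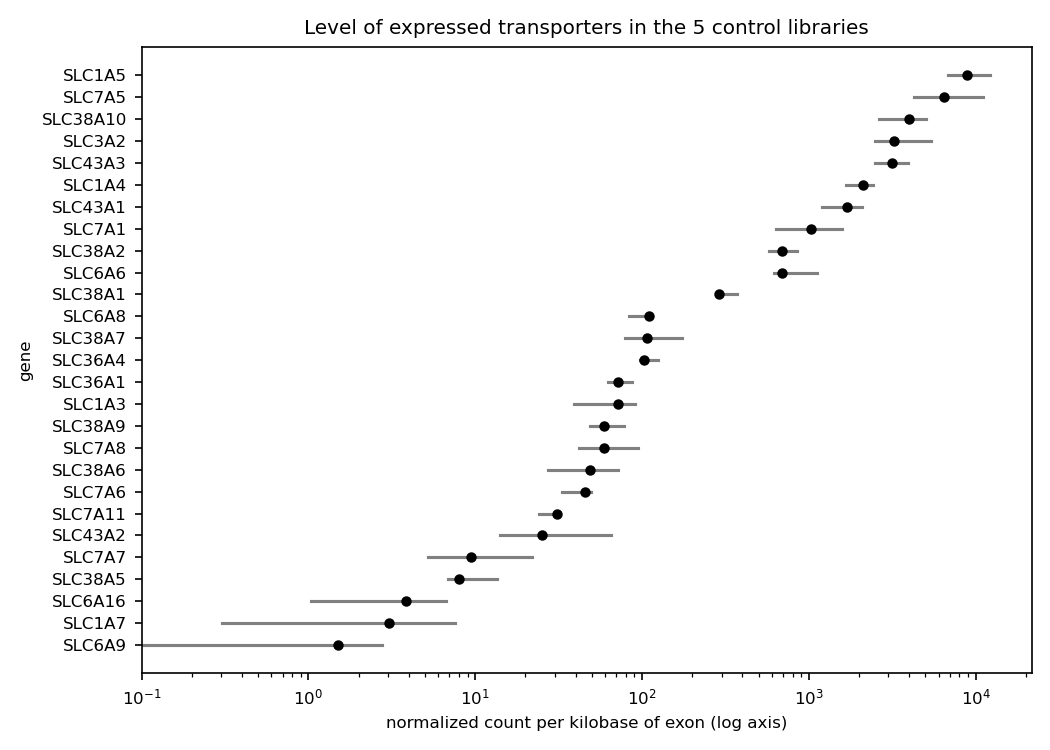
Normalized count per kilobase of exon (horizontal log axis) for the 27 expressed transporters; points are medians of the 5 control libraries and lines run from the lowest to the highest. SLC1A5 leads at 8921 and SLC7A7 lies at 9.38; SLC6A9 was 0 in the wild type library and its line starts at the left edge.

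By role, 1 of 2 heavy chains and 5 of 8 light chains were expressed, as were 1 of 5 cationic carriers, 4 of 7 SLC1 members, 7 of 11 SLC38 members, 2 of 4 SLC36 members, 3 of 3 SLC43 members and 4 of 19 SLC6 members. SLC6 holds the carriers of neurotransmitters and of several amino acids in kidney and gut. The summed normalized count of the 32 unexpressed members was between 28.9 and 197 in 16 libraries. It was 994 in ATF7 knockout clone 2 replicate 1, 622 in IRF2BP2 shRNA 1 replicate 3 and 464 in JDP2 knockout clone 1 replicate 2. In the first of these and in IRF2BP2 shRNA 1 replicate 3 all 32 had at least 1 read. Over all genes with a mean under 10 the same libraries held 0.339%, 0.294% and 0.0843% of the normalized total, against 0.0159% to 0.0814% in the others. Whether this low signal touches the results on SLC7A7 and other low members was not tested. For the members the results turn on, values are also given with these libraries and IRF2BP2 shRNA 2 replicate 3 left out.

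**Figure D2:**
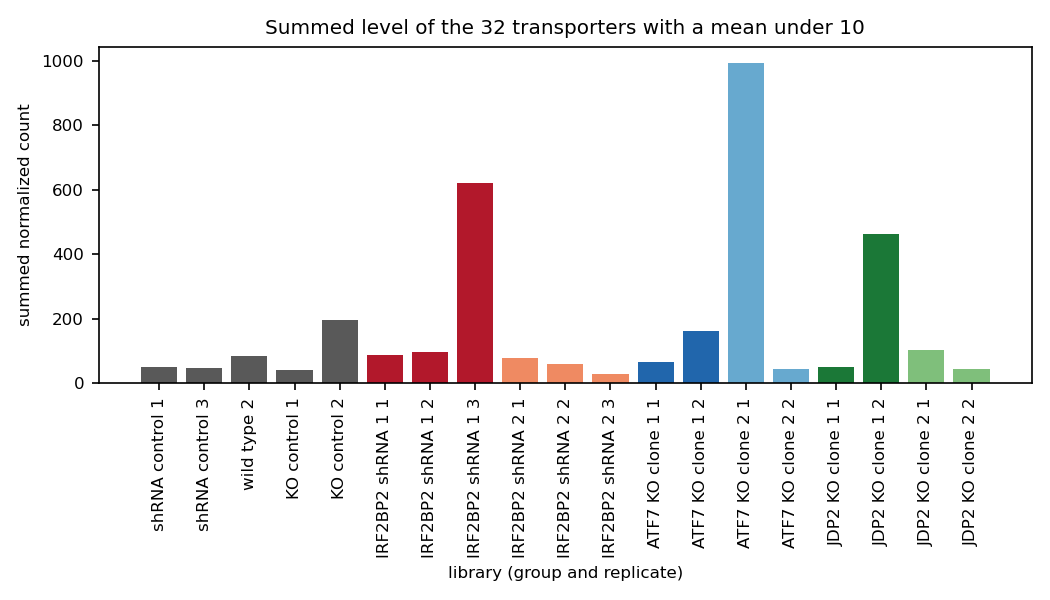
Summed normalized count (vertical axis) of the 32 transporters with a mean under 10, 1 bar per library, coloured by group. The bars reach 994, 622 and 464 in 3 libraries and stay at or under 197 in the other 16.

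The knockdown comparison asks which transporters differ between the libraries labelled IRF2BP2 knockdown and the shRNA control. Both hairpins count as knockdown there, although the IRF2BP2 message was not clearly lowered in replicates 2 and 3 of IRF2BP2 shRNA 2. Of 28 members tested, 1 was called at an adjusted p under 0.05 (limma, adjusted over all 12738 genes tested): SLC7A7 was higher, and none was lower. Here 5 SLC6 members were tested, while 4 averaged 10 or more over all libraries, so the 28 include a low member. This arm holds IRF2BP2 shRNA 1 replicate 3, where the low members summed to 622, and passing through that library was not tested. The share called among all genes tested was 1.79%, or 1.54% higher and 0.251% lower. At an unadjusted p under 0.05 there were 5 members, against 14% of all genes. The median log2 change of the members was 0.06, beside -0.03 over all genes tested. The log2 changes run on log2(normalized count + 1), which understates the change of low genes. The value after ± is the standard error (SE).

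SLC7A7, the light chain y+LAT1, which exchanges cationic for neutral amino acids and is mutated in lysinuric protein intolerance, had 15.9 and 25.3 normalized counts in the shRNA control, 26.5 in the wild type and 14.1 and 59.2 in the knockout control. It had 107, 151 and 459 with IRF2BP2 shRNA 1 and 105, 111 and 175 with IRF2BP2 shRNA 2. All 6 knockdown libraries lay above all 5 controls and also above every knockout clone, where the highest value was 46.3. The gene (chr14:22773222-22829820, minus strand, GRCh38) averaged 20.6 ± 6.63 (SD, n = 2) in the shRNA control and 185 ± 137 (SD, n = 6) in the knockdown.

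The log2 change of SLC7A7 was 2.91 ± 0.54 (SE, adjusted p = 0.0175), in limma, with 6 of 6 libraries higher. The call did not need the highest library, IRF2BP2 shRNA 1 replicate 3: without the 4 libraries that stand apart the change was 2.49 (adjusted p = 0.000868). These 4 are the 3 libraries far from the median and ATF7 knockout clone 2 replicate 1, and were picked after seeing the data. Each fit held only the libraries of its own arm, so the knockdown fit lost only replicate 3 of each hairpin. The knockout fits lost only JDP2 knockout clone 1 replicate 2 and ATF7 knockout clone 2 replicate 1. The call was lost without shRNA control replicate 1 (2.59, adjusted p = 0.340) or replicate 3 (3.23, adjusted p = 0.0912), which leave 1 control library that is assumed to vary like the others. It was also lost with edgeR's quasi-likelihood test on recovered reads (3.18, adjusted p = 0.0675).

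The other expressed light chains were not called. SLC7A5 had 46723 and 19600.4 normalized counts in the shRNA control, 24692, 17906 and 4022 with IRF2BP2 shRNA 1 and 30033, 22273 and 21495 with IRF2BP2 shRNA 2. The groups overlapped, and the 4022 of IRF2BP2 shRNA 1 replicate 3 was the lowest of all 19 libraries. Its log2 change was -0.82 ± 0.67 (SE, adjusted p = 0.641). The partner SLC3A2 (-0.60 ± 0.50, adjusted p = 0.642) was also lowest in that library, at 2136, beside 5948 to 8432 in the other 5 knockdown libraries.

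For SLC7A11, the cystine carrier xCT, the knockdown libraries ran from 139.9 to 936 around the shRNA control values of 307 and 299. Its change was 0.38 ± 0.55 (SE, adjusted p = 0.806), and 5 of 6 libraries were higher. SLC7A8, the neutral exchanger LAT2, ran from 163 to 934, with 249 and 198 in the shRNA control. SLC7A6, the light chain y+LAT2 that shares the cargo of SLC7A7, had 0.43 ± 0.31 (SE, adjusted p = 0.583), with the groups overlapping. SLC7A1, the expressed cationic carrier, had -0.53 ± 0.47 (SE, adjusted p = 0.670).

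SLC36A1, a proton-coupled carrier that releases small amino acids from the lysosome, had 402 and 464 in the shRNA control, 541 in the wild type and 557 and 454 in the knockout control. It had 784, 1134 and 1586 with IRF2BP2 shRNA 1 and 878, 1083 and 2276 with IRF2BP2 shRNA 2. All 6 knockdown libraries lay above all 5 controls. The log2 change of 1.48 ± 0.39 (SE, adjusted p = 0.0817) missed the threshold in limma with the shRNA control alone. It passed against all 5 controls as 1 group (1.32, adjusted p = 0.00374), without IRF2BP2 shRNA 1 replicate 3 (1.40, adjusted p = 0.0446) and without the 4 libraries that stand apart (1.15, adjusted p = 0.00599). The other expressed member of the family, SLC36A4, had -0.33 ± 0.37 (SE, adjusted p = 0.736).

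SLC43A1 lay the other way. It had 4555 and 3229 in the shRNA control, 3564 in the wild type and 5639 and 4792 in the knockout control. It had 2588, 1809.6 and 698 with IRF2BP2 shRNA 1 and 2287, 2542 and 2139.7 with IRF2BP2 shRNA 2. All 6 knockdown libraries lay below all 5 controls. The log2 change was -1.05 ± 0.46 (SE, adjusted p = 0.325) with the shRNA control alone, and passed in limma against all 5 controls (-1.20, adjusted p = 0.0199) and without the 4 libraries (-0.75, adjusted p = 0.0467). The related SLC43A2, the facilitated carrier LAT4, had 1.07 ± 0.52 (SE, adjusted p = 0.393), and SLC43A3 -0.13 ± 0.35 (SE, adjusted p = 0.899).

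Among the 27 expressed members, SLC7A7 and SLC36A1 were thus the 2 whose 6 knockdown libraries all exceeded the 5 controls, and SLC43A1 the 1 whose libraries all fell below. Over all 13021 genes with a mean of at least 10, 6.06% lay above and 5.11% below in this way, so the members' counts sit near the background.

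**Figure D3:**
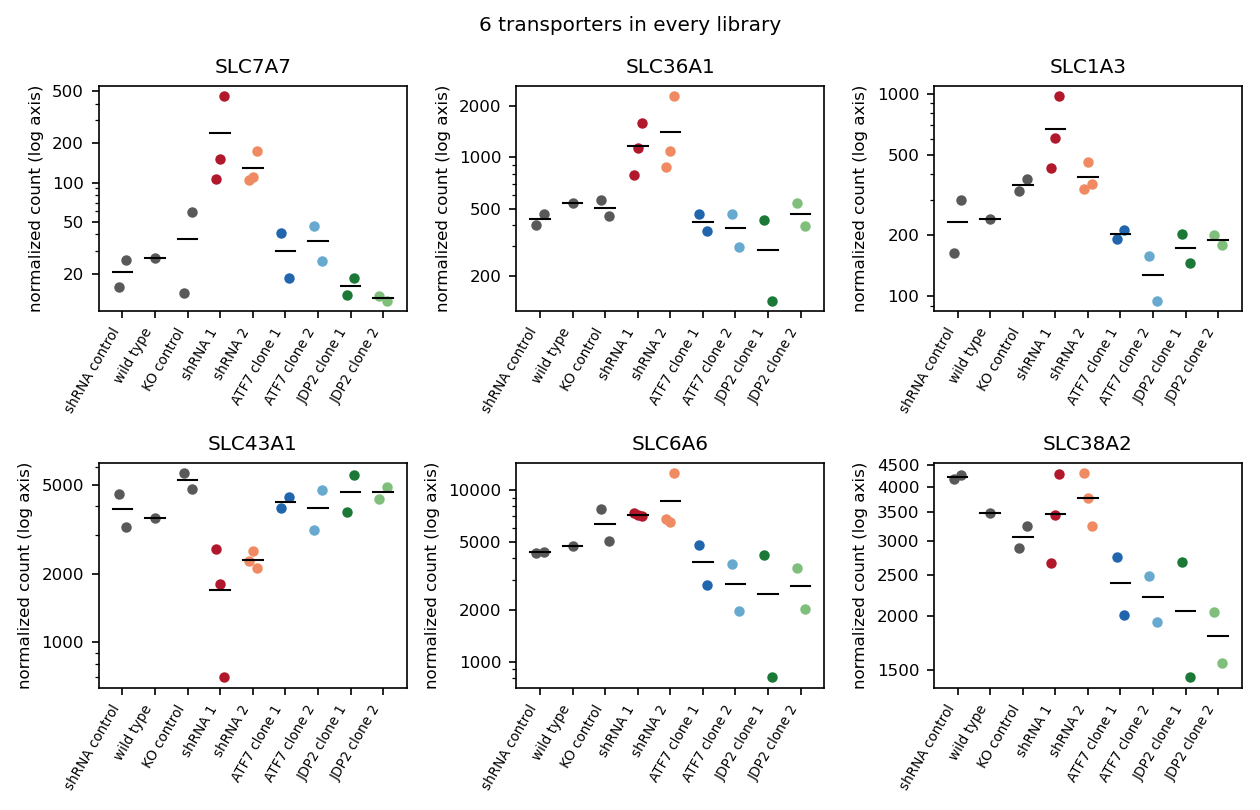
Normalized count (vertical log axis) of 6 transporters in every library, by group; each point is 1 library and the bar is the group mean. The knockdown libraries of SLC7A7 lie between 105 and 459, above all others, and those of SLC43A1 between 698 and 2588, below all others.

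SLC1A3, the glutamate and aspartate carrier also known as GLAST, had 164 and 299.9 normalized counts in the shRNA control. It had 430.2, 606 and 970.1 with IRF2BP2 shRNA 1 and 339, 459 and 359 with IRF2BP2 shRNA 2. These lay above the shRNA control, but overlapped the knockout control, with 331 and 378: replicates 1 and 3 of IRF2BP2 shRNA 2 lay between these values. The log2 change was 1.14 ± 0.41 (SE, adjusted p = 0.227). SLC1A5 (-0.67 ± 0.59 (SE, adjusted p = 0.670)) and SLC1A4 (0.14 ± 0.33, adjusted p = 0.881), the abundant members of the family, were not called either.

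SLC6A6 had 4292 and 4353 in the shRNA control, 7333, 7132 and 7015 with IRF2BP2 shRNA 1 and 6739, 6529 and 12577 with IRF2BP2 shRNA 2. The knockdown values lay above the shRNA control and overlapped 1 library of the knockout control, at 7728. The change was 0.83 ± 0.34 (SE, adjusted p = 0.292). Within SLC38, SLC38A9, the lysosomal arginine sensor, was higher in 6 of 6 knockdown libraries than in the shRNA control but not called (0.67 ± 0.38 (SE, adjusted p = 0.478)). SLC38A1 (-0.17 ± 0.37), SLC38A2 (-0.24 ± 0.30) and SLC38A10 (-0.26 ± 0.53) had log2 changes under 2 standard errors. SLC6A9, the glycine carrier GLYT1, was near the limit of detection, with 2.84 to 34.5 in the knockdown.

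Without the 4 libraries that stand apart, 6 members were called in the knockdown comparison, beside 10.1% of all genes (6.35% higher and 3.78% lower). They were SLC7A7, SLC36A1, SLC1A3 (1.01, adjusted p = 0.0470), SLC6A6 (0.68, adjusted p = 0.0261) and SLC43A2 (1.03, adjusted p = 0.0466) as higher and SLC43A1 as lower, in limma. In the authors' deposited table, which sets the knockdown against all controls, 5 of the 28 members with an adjusted p passed 0.05, beside 17.5% of all genes there. That table gave SLC7A7 a log2 change of 2.25 (SE 0.36), SLC36A1 1.30 (SE 0.27), SLC1A3 0.83 (SE 0.27) and SLC38A9 0.73 (SE 0.24) as higher, and SLC43A1 -1.04 (SE 0.24) as lower, per the authors' deposited table.

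**Figure D4:**
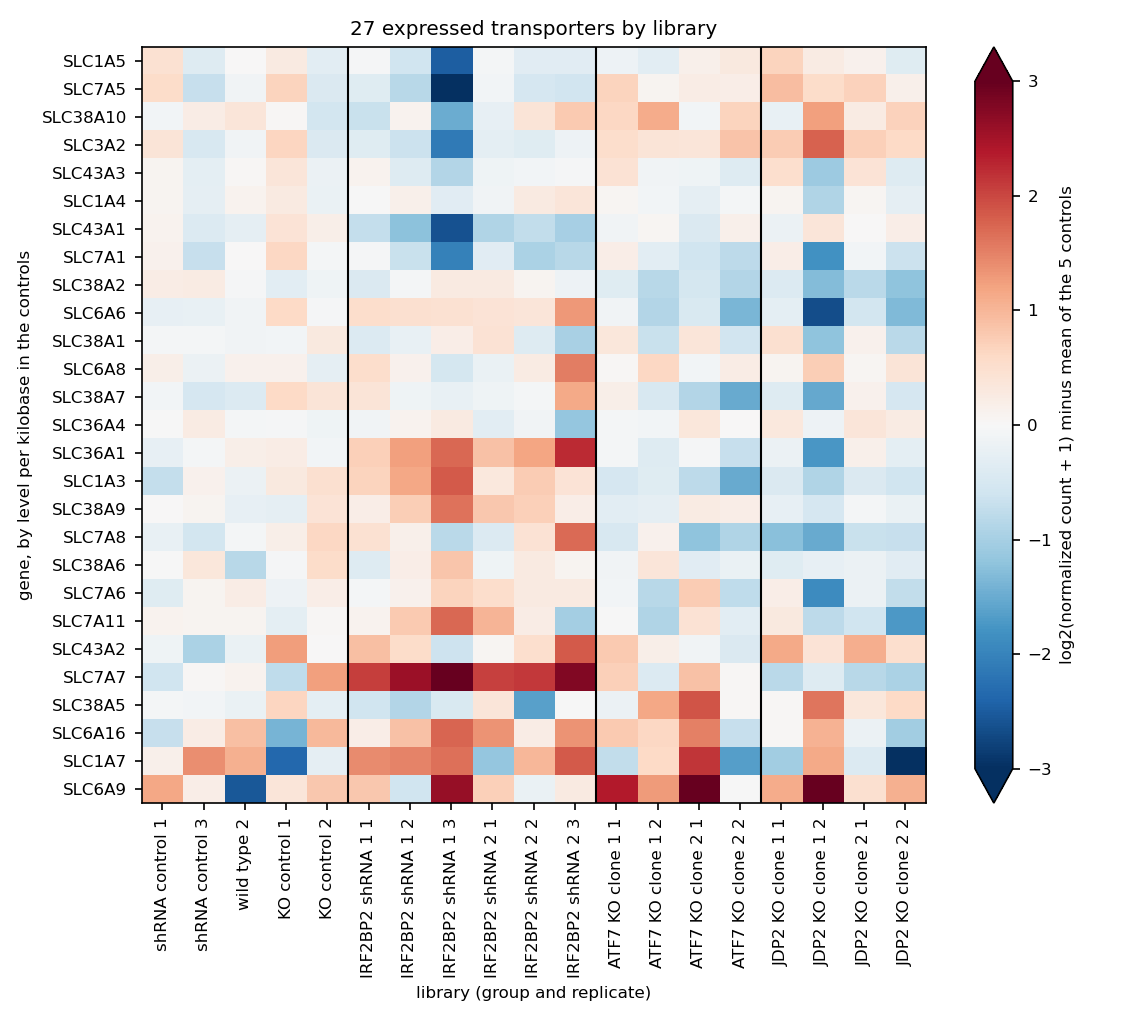
Log2(normalized count + 1) of the 27 expressed transporters (rows, by level per kilobase) in the 19 libraries (columns) minus the mean of the 5 controls; red is higher and blue lower, and colours saturate at 3. SLC7A7 is red in all 6 knockdown libraries, SLC43A1 blue in all 6, and SLC38A2 blue in all 8 knockout libraries; IRF2BP2 shRNA 1 replicate 3 and JDP2 knockout clone 1 replicate 2 hold the strongest colours of many rows.

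The knockout comparisons ask which transporters differ in cells edited at ATF7 or JDP2. ATF7 and JDP2 clones were set against the same 2 knockout control libraries, so the comparisons share their controls. In these fits 34 members were tested, since 7 members with a mean under 10 over all libraries passed the limit within this arm. This arm holds ATF7 knockout clone 2 replicate 1 and JDP2 knockout clone 1 replicate 2, where the low members summed to 994 and 464. In the other libraries of this arm the low members summed to 41.3 to 197. Over all genes, 13208 passed the limit in this arm, and 12286 with both high libraries left out. The 7 may thus have passed through those libraries, so no result is drawn from them. Which of the 7 would pass without those libraries was not tested, and the counts and medians below include all 7. For ATF7, 0 of 34 members were called (limma; 3 at an unadjusted p under 0.05), and edgeR's test on recovered reads also called 0. Among all genes 0.25% were called, and 7.09% had an unadjusted p under 0.05. For JDP2, limma called 0 of 34 members and edgeR 0, with 6 at an unadjusted p under 0.05 in limma. Among all genes 0.674% were called and 16.8% passed the unadjusted limit. The members' median log2 change was -0.02 for ATF7 (0.04 over all genes) and -0.23 for JDP2 (0.00 over all genes).

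SLC38A2, the carrier that cells raise on amino acid shortage, had 4187 and 4263 normalized counts in the shRNA control, 3479.8 in the wild type and 2887 and 3249 in the knockout control. It had 2756 and 2016 in ATF7 clone 1 and 2487 and 1939.8 in clone 2, and 2677 and 1439.6 in JDP2 clone 1 and 2041 and 1553 in clone 2. All 8 knockout libraries lay below all 5 controls. The log2 change was -0.43 ± 0.29 (SE, adjusted p = 0.790) for ATF7 and -0.71 ± 0.29 (SE, adjusted p = 0.260) for JDP2. Against all 5 controls the JDP2 change passed in limma (-0.93, adjusted p = 0.0245). Without the 4 libraries that stand apart it was -0.59 (adjusted p = 0.302) for JDP2. Knockout and shRNA controls differ in vector, and the shRNA control was the higher of them here.

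SLC6A6 had 7728 and 5003 in the knockout control, 4765 and 2785 in ATF7 clone 1 and 3691 and 1969 in clone 2, and 4169 and 807 in JDP2 clone 1 and 3495 and 2025 in clone 2. The JDP2 libraries lay below all 5 controls, with JDP2 clone 1 replicate 2 the lowest of all 19 libraries. The change was -1.49 ± 0.56 (SE, adjusted p = 0.241) for JDP2 and -0.99 ± 0.56 (SE, adjusted p = 0.761) for ATF7. Without the 4 libraries that stand apart the JDP2 change was -1.01 (limma, adjusted p = 0.242).

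SLC7A8 had 328 and 447 in the knockout control, 206 and 316 in ATF7 clone 1 and 125 and 155 in clone 2, and 121 and 101 in JDP2 clone 1 and 182 and 178 in clone 2. The JDP2 libraries lay below all 5 controls, while ATF7 clone 1 overlapped them. Its change of -1.43 ± 0.39 (SE, adjusted p = 0.146) had the lowest p of the members for JDP2. For ATF7 it was -1.02 ± 0.39 (SE, adjusted p = 0.564). With the 4 libraries left out the changes were -1.27 for JDP2 and -0.82 for ATF7. SLC38A2, SLC6A6 and SLC7A8 were the 3 of 27 expressed members with every JDP2 library below all 5 controls, beside 6.19% of all genes, and SLC38A2 was the 1 for ATF7, beside 2.54%. No member lay above all controls in either knockout, beside 7.34% of all genes for JDP2 and 2.2% for ATF7.

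SLC1A3 had 331 and 378 in the knockout control. It had 192 and 213 in ATF7 clone 1, 159 and 94.8 in ATF7 clone 2, 202 and 145 in JDP2 clone 1 and 201 and 179 in JDP2 clone 2. All 8 lay below the knockout control, but they overlapped the shRNA control and the wild type. Its change was -1.16 ± 0.34 (SE, adjusted p = 0.283) for ATF7 and -0.97 ± 0.34 (SE, adjusted p = 0.222) for JDP2, and with the 4 libraries left out -1.17 and -0.86. SLC38A7, a lysosomal glutamine exporter, had -1.17 ± 0.48 (SE, adjusted p = 0.611) for ATF7 and -1.08 ± 0.48 (adjusted p = 0.284) for JDP2.

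The heavy chain SLC3A2 was among the members that lay higher. It had 14446 and 6939.5 normalized counts in the knockout control, 15793 and 31555 in JDP2 clone 1 and 15407 and 14159 in JDP2 clone 2. The groups overlapped, and replicate 2 of JDP2 clone 1 was the highest of all 19 libraries. The log2 change was 0.86 ± 0.38 (SE, adjusted p = 0.283) for JDP2 and 0.43 ± 0.38 (SE, adjusted p = 0.829) for ATF7. It passed for JDP2 in limma against all 5 controls (0.96, adjusted p = 0.0474). With the 4 libraries left out, among them the one at 31555, it was 0.59 (adjusted p = 0.343).

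The abundant carriers SLC7A5 (0.46 ± 0.34 for JDP2 and 0.18 ± 0.34 for ATF7) and SLC1A5 (0.20 ± 0.32 and 0.03 ± 0.32) had log2 changes under 2 standard errors. For SLC7A11 the changes were -0.57 ± 0.49 for JDP2 and -0.06 ± 0.49 for ATF7. SLC7A7, called in the knockdown, had -0.97 ± 0.68 for JDP2 and 0.07 ± 0.68 for ATF7. SLC43A1 had -0.19 ± 0.26 and -0.37 ± 0.26.

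In the authors' deposited tables, 0 of 27 members with an adjusted p passed 0.05 for ATF7, beside 0.315% of all genes. For JDP2, 3 of 27 passed, beside 12.1%: SLC3A2 as higher, with a log2 change of 0.86 (SE 0.30), and SLC38A2 (-0.86, SE 0.21) and SLC6A6 (-0.86, SE 0.31) as lower, per the authors' deposited tables.

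**Figure D5:**
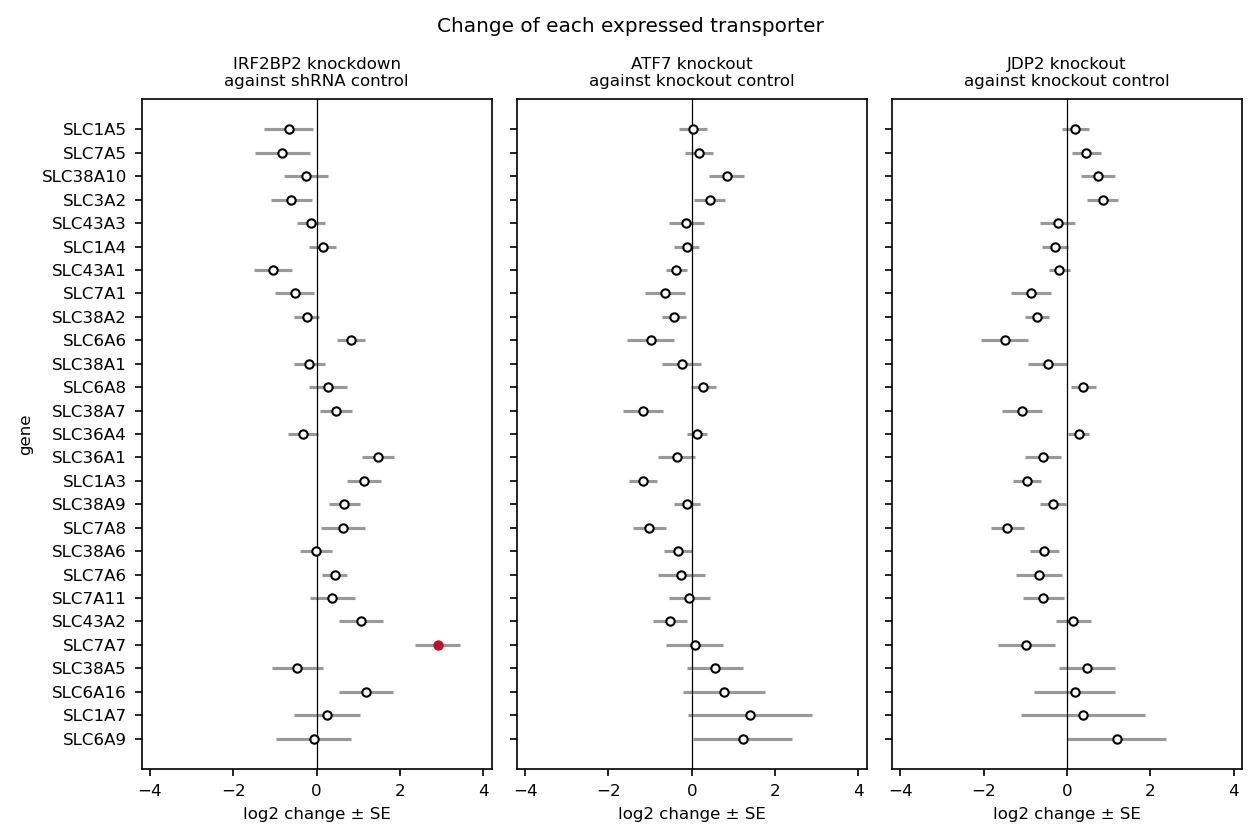
Log2 change ± SE (horizontal axis) of each expressed transporter in the knockdown and in both knockouts, with limma; the filled red point passed an adjusted p of 0.05 and open points did not. SLC7A7 at 2.91 in the knockdown is the only filled point, and the error bars of SLC1A7, SLC6A9 and SLC6A16 are the widest in the knockouts.

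Direct differences between perturbed groups were tested next. Between JDP2 and ATF7 knockouts limma called 0 of 34 members, 0 at an unadjusted p under 0.05, and edgeR called 0; of all genes 0% were called and 2.19% passed the unadjusted limit. The member of lowest p was SLC43A2, at 0.68 ± 0.34 (SE, adjusted p = 0.999). Between the hairpins limma called 0 of 28 members (1 at an unadjusted p under 0.05; edgeR 0), beside 0% of all genes called and 7.2% at the unadjusted limit, and SLC38A10 had the lowest p, at 1.00 ± 0.46 (SE, adjusted p = 0.589) for shRNA 2 minus shRNA 1.

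Between the ATF7 clones limma called 0 of 34 (2 at the unadjusted limit; edgeR 0), beside 0.303% of all genes called and 6.62% unadjusted. Between the JDP2 clones it called 0 of 34 (0 unadjusted; edgeR 0), beside 0.136% called and 2.48% unadjusted. SLC7A8 had the lowest p in both, at -0.87 ± 0.35 (SE, adjusted p = 0.642) for ATF7 clone 2 minus clone 1 and 0.70 ± 0.35 (SE, adjusted p = 0.993) for JDP2 clone 2 minus clone 1. With 2 libraries per clone these tests leave wide intervals, and a p that misses the threshold does not show that clones or hairpins are alike.

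The difference between the knockdown change and the mean knockout change, each against its own control, was called for 2 of 27 members in limma, both higher, beside 1.41% of all 13057 genes tested (1.17% higher). SLC1A3 differed by 2.21 ± 0.53 (SE, adjusted p = 0.0408): it was 1.14 in the knockdown, -1.16 for ATF7 and -0.97 for JDP2. SLC7A7 differed by 3.36 ± 0.81 (SE, adjusted p = 0.0426), from 2.91 in the knockdown and 0.07 and -0.97 in the knockouts. At an unadjusted p under 0.05 there were 6 members, beside 17.1% of all genes. Both calls sat close to the threshold and depended on single libraries. Each was lost without either library of the shRNA control, either library of the knockout control, either library of JDP2 clone 2, ATF7 clone 2 replicate 2 or IRF2BP2 shRNA 1 replicate 2, with adjusted p between 0.0514 and 0.401. SLC1A3 was also lost without ATF7 clone 2 replicate 1 (0.0514) or IRF2BP2 shRNA 2 replicate 2 (0.0517), and SLC7A7 without either library of ATF7 clone 1 (0.0503 and 0.0600) or IRF2BP2 shRNA 2 replicate 3 (0.0560). Without the 4 libraries that stand apart both passed, at an adjusted p of 0.0191 for SLC1A3 and 0.0189 for SLC7A7.

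Genes around the carriers were counted from lists of the pathway. In the knockdown, 0 of 29 tested genes of the amino acid starvation response were called in limma, beside 1.79% of all genes. Of these, 22 had a negative log2 change and 7 a positive one, 8 had an unadjusted p under 0.05 (beside 14% of all genes), and the median was -0.55, beside -0.03 over all genes. The most abundant were SHMT2, the mitochondrial serine enzyme (-1.13 ± 0.58 (SE, adjusted p = 0.424)), and ATF4, the factor that drives the response (-0.60 ± 0.38 (SE, adjusted p = 0.528)). With the 4 libraries that stand apart left out, 6 were lower and 1 higher in limma, beside 3.78% and 6.35% of all genes. Lower were the transaminases PSAT1 (-1.10, adjusted p = 0.0176) and GPT2 (-1.76, adjusted p = 0.00106), PHGDH of serine synthesis (-1.06, adjusted p = 0.0162), the asparagine synthetase ASNS (-0.96, adjusted p = 0.0365), CBS of cysteine synthesis (-1.99, adjusted p = 0.00656) and the alanine tRNA synthetase AARS1 (-0.87, adjusted p = 0.0424). PPP1R15A, a phosphatase subunit, was higher (1.02, adjusted p = 0.00656). In the lists of lysosomal amino acid sensing (0 of 29; the most abundant were MLST8, -1.31 ± 0.50, and LAMTOR4, -0.15 ± 0.56) and of other amino acid and peptide carriers (0 of 16; SLC25A39, -0.66 ± 0.51, and SLC25A22, 0.09 ± 0.49) none was called, with 8 and 5 at an unadjusted p under 0.05. In the fit that leaves out the 4 libraries, 2 were higher and 1 lower in the first, and 2 and 2 in the second.

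Of 20 genes of glutathione and cystine use, 1 was called: HMOX1, which breaks down heme, rose from a mean of 236 in the shRNA control to 2299.7 in the knockdown, a log2 change of 3.19 ± 0.51 (SE, adjusted p = 0.00789), in limma. Of 16 genes of glutamine and arginine use, IL4I1, a secreted amino acid oxidase, rose from 148 to 698, at 2.14 ± 0.40 (SE, adjusted p = 0.0177). Both were higher in 6 of 6 libraries. These are single calls in short lists, beside 1.54% of all genes called as higher. Without the 4 libraries HMOX1 was 3.06 (adjusted p = 0.000442) and IL4I1 2.04 (adjusted p = 0.000586), and 3 of 20 and 1 of 15 genes of these lists were higher, with 0 and 1 lower. In that limma fit 6.35% of all genes were called as higher and 3.78% as lower.

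For ATF7 and JDP2, 0 genes of these 5 lists were called in limma. Their most abundant genes included PHGDH, at 0.25 ± 0.44 for ATF7 and 0.44 ± 0.44 for JDP2, and GLUL, the glutamine synthetase, at -0.47 ± 0.41 and -0.81 ± 0.41.

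Some markers of the monocytic lineage moved beside SLC7A7. In the knockdown 2 of 12 rose, beside 1.54% of all genes: ITGAM (3.17 ± 0.46 (SE, adjusted p = 0.00533)) and CD36 (3.34 ± 0.61 (SE, adjusted p = 0.0164)), in limma. Of the 12, 9 had a positive log2 change and 3 a negative one, and 7 had an unadjusted p under 0.05, beside 14% of all genes. The negative ones were ELANE (-1.83 ± 0.66 (SE, adjusted p = 0.224)), CSF3R (-0.46 ± 0.54) and CEBPA (-0.14 ± 0.57). When the 4 libraries were left out, ITGAM (2.91, adjusted p = 6.36e-06), CD36 (2.95, adjusted p = 0.00132), CSF1R (2.48, adjusted p = 0.000220) and FCGR1A (1.12, adjusted p = 0.0110) were higher and ELANE (-1.27, adjusted p = 0.0257) was lower. In that limma fit 6.35% of all genes were called as higher and 3.78% as lower. The summed level of all 12 overlapped, at 75309.8 to 224480.0 in the knockdown and 123903 to 162795 in the shRNA control. That sum is mostly ELANE, CEBPA, LYZ and SPI1 (medians over all libraries 38451, 30625, 30399 and 13735.5). It says little of ITGAM (median 1041) or CD36 (114). The part of the cells' maturation state in the changes of SLC7A7 and the other carriers was not tested, and more transcript per cell cannot be told apart from more cells of a kind in bulk RNA. T and NK markers summed to 5215 to 29307.5 in the knockdown and 11723 to 17036 in the shRNA control, nearly all of it NKG7, while CD3D, CD3E and CD8A had a median of 0. Stromal and epithelial markers summed to 54.0 to 263 and 121 to 251. Both lists overlapped, with 0 called. Among B cell markers PAX5 lay lower in 6 of 6 knockdown libraries without being called (-0.89 ± 0.40 (SE, adjusted p = 0.348)), and CD79A had -0.61 ± 0.90 (SE, adjusted p = 0.813).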

How the data were processed

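Messenger RNA libraries were sequenced on an Illumina platform from column-extracted, DNase-treated total RNA, per the labels. Tools named in the submitters' processing notes are featureCounts and DESeq2, with the build hg38; the aligner, annotation, strand setting and versions were not given in the sources used here. The authors deposited DESeq2-normalized gene values, a signal equal to the read count divided by a size factor per library, for 20423 genes in 19 libraries. Values were whole multiples of 1 step per library (tolerance 0.01) for 100% of 388037 values, so read counts were recovered. The authors also deposited comparison tables that hold log2 fold changes with standard errors, Wald scores, p-values and adjusted p-values. Fold change and deposited Wald score have opposite signs in 100% of genes, and the fold change was read for direction.

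Values were taken as log2(normalized count + 1). Genes averaging 10 or more in the libraries fitted together were tested with limma 3.58.1 (empirical Bayes with a trend; R 4.3.3) with Benjamini-Hochberg adjustment over all genes tested, and called at an adjusted p under 0.05. Both hairpins formed 1 group, as did the clones of a knockout. Alternatives were a pseudocount of 10, no filter, TMM scaling, edgeR 4.0.16 quasi-likelihood on recovered reads, 1 fit over all libraries, a replicate block, all 5 controls as 1 group, and leaving out each library. Fits were tested on simulated data. Leaving out the 4 libraries that stand apart was added after seeing the data, and each fit lost only those of its own arm. The members and lists were chosen with earlier results of these data known.

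Named members were 20 chosen by role whatever their values, the called members or those of lowest p in each comparison, the 5 of highest level per length, and from the other lists the called genes or the 2 of highest mean. Members named for an unadjusted p under 0.05 or for not overlapping the controls, and the other genes named for a fit without the 4 libraries or as markers that lay lower, were chosen after their values were seen. Exon lengths are unions of GENCODE release 29 exons, matched by symbol for all 59 members; promoter windows are RefSeq's on GRCh38.p14. SESN2 and CHAC1 stand in 2 of the gene lists each. Some marker results are not reported here.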

Additional observations from a re-analysis of the deposited data

Results flagged for a closer look

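In 69 groups of 4 to 6 libraries, 11 held a library far from the others by Dixon's criterion, which chance gives for about 1 in 20 groups. All 11 fell on 4 libraries. Among these, the 3 with the highest sums over unexpressed members were set apart at least partly by that sum, so flags on it repeat the choice. In IRF2BP2 shRNA 1 replicate 3, SLC7A7 had 459.2 normalized counts (the next knockdown library had 174.9), SLC38A9 had 634.5 (next 354.5) and SLC6A9 had 34.49 (next 9.172). The summed level of the unexpressed members there was 622.3 (next 97.34). In IRF2BP2 shRNA 2 replicate 3, SLC38A7 had 1293 (next 771.4), SLC6A6 had 12577 (next 7333) and SLC7A8 had 933.5 (next 398.1). In JDP2 knockout clone 1 replicate 2, SLC3A2 had 31555 (next 15793), SLC6A9 had 128.7 (next 11.60) and the unexpressed members summed to 464.3 (next 101.1). In ATF7 knockout clone 2 replicate 1 the unexpressed members summed to 993.95 (next 161.6).

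A test of the difference itself separated the knockdown change from the mean knockout change for 2 members in limma, SLC1A3 by a log2 difference of 2.21 and SLC7A7 by 3.36. The parts of hairpin and CRISPR vectors, of clones and of separate controls in these differences were not tested.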

How the results depend on the processing

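Counts of called members depended on the setting in 3 comparisons. In the knockdown, where 1 member was called, beside 1.79% of all genes, edgeR called 0 (beside 0.973%), all 5 controls as 1 group gave 3 (beside 12.3%), leaving out single libraries gave 0 to 2 (beside 0.0862% to 4.92%), and leaving out the 4 libraries that stand apart gave 6 (beside 10.1%). For JDP2, where 0 were called beside 0.674%, all 5 controls gave 2 (beside 7.08%). For the knockdown minus the mean knockout change, where 2 were called beside 1.41%, no filter on low values gave 0 (beside 0.405%), the replicate block gave 4 (SLC1A3, SLC7A7, SLC36A1 and SLC6A6, beside 4.28%), leaving out single libraries gave 0 to 2 (beside 0% to 2.29%) and leaving out the 4 libraries gave 5 (beside 6.56%). Each setting that called more members than the reported fit also called more of all genes. The other comparisons kept 0 under every alternative run. SLC7A7 stayed higher in the knockdown in all 16 alternatives, with adjusted p from 0.000868 to 0.340. Over all genes, 228 were called in the knockdown (11 to 609 without single libraries, 124 to 1561 otherwise), 33 for ATF7 (0 to 23 and 0 to 74) and 89 for JDP2 (0 to 125 and 53 to 919). Values that changed sign were all uncalled. They were SLC1A5 for ATF7 (0.03; -0.0049 with all 5 controls, -0.027 without the 4 libraries, -0.27 to 0.32 without single libraries) and SLC43A3 for JDP2 (-0.23; 0.091 without the 4 libraries, -0.50 to 0.091 without single libraries). Without single libraries the knockdown gave -0.33 to 0.059 for SLC43A3 and -0.46 to 0.00054 for SLC38A10. ATF7 gave -0.41 to 0.14 for SLC43A3, -0.38 to 0.73 for SLC7A5 and -0.10 to 0.96 for SLC3A2. JDP2 gave -0.092 to 0.50 for SLC1A5 and -0.096 to 1.02 for SLC7A5. The cause of these changes was not tested, beyond the fewer or more libraries in each fit. Some same-numbered libraries deviated together and others did not: 3 of 7 pairs in the knockdown arm and 10 of 20 in the knockout arm correlated over 0.1. Knockout correlations ran from -0.531 to 0.566. In groups of 2 the libraries mirror each other, so these pairs are not independent and do not settle whether numbers mark pairs. Numbers were not taken as pairs. With the replicate block the knockdown again called 1 member, SLC7A7 (beside 1.64% of all genes). ATF7 and JDP2 again called 0, beside 0.56% and 1.22%. On data simulated for the knockdown comparison (12575 genes), limma called 6.25% of log2 changes of 1, 75% of those of 2 and 100% of those of 3, so a change near 1 was mostly missed with these numbers of libraries.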
